A study of Homo sapiens with 6 samples.

Results

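The proteasome genes of K562 cells were compared between a control group and a hyperoside group of RNA-seq libraries. The genes were taken by name from the protein-coding rows of the count table, as every symbol made of PSMA, PSMB, PSMC, PSMD, PSME, PSMF or PSMG and a digit, together with POMP. This rule gave 50 of the 24960 genes in the table. Of these, 48 belong to the proteasome, namely 18 genes of the 20S core particle, 17 of the 19S regulatory particle, 8 assembly factors and chaperones, and 5 activators or inhibitors of the core. The other 2, PSMC3IP and PSME3IP1, were taken only because they are named after the subunits they bind, and they were kept apart. The thymus subunit gene PSMB11 was not analysed here.

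K562 is an established human cell line grown from a patient with chronic myeloid leukemia (CML), and the labels also give the tissue as bone. The control group had 3 libraries without hyperoside and the hyperoside group had 3 libraries from cells given hyperoside, a plant flavonol that carries a galactose, at the 2 mM named in the paper for the sequencing experiment. The time between treatment and RNA extraction is not stated in the sources used here, nor is a vehicle. The labels do not say whether replicates came from separate cultures, so the p-values measure only the spread between these libraries. Each library held between 35613283 and 36754725 counts. Of 10 erythroid genes that mark K562, all 10 reached at least 1 FPKM (counts scaled to gene length and library total) in every library, with summed levels of 7734 to 9594 FPKM in control libraries and 5662 to 6822 FPKM in hyperoside libraries. That sum is mostly globin RNA, and the list did not move one way, with HBG1, HBG2 and HBE1 among those called lower and KLF1, EPOR and ALAS2 called higher. Of the 4 T lymphoid, 4 monocyte, 5 fibroblast and 3 bone markers in the table, CD3D and LYZ were those that reached 1 FPKM in every library, while the defining CD3E, CD14 and COL1A1 stayed under it in all. The summed T lymphoid markers, nearly all CD3D, lay between 35.2 and 42.6 FPKM in control libraries and between 48.1 and 54.1 FPKM in hyperoside libraries. The summed monocyte markers, nearly all LYZ, lay between 32.8 and 37.4 FPKM and between 50.4 and 53.6 FPKM. The part of these shifts in the results was not tested, and in bulk RNA fewer cells of a type and less RNA per cell cannot be told apart.

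The proteasome is the protease that degrades proteins marked with ubiquitin in the cytosol and the nucleus. Its 20S core is a barrel of alpha and beta rings, in which PSMB5, PSMB6 and PSMB7 carry the proteolytic sites. In immune cells and after interferon these are replaced by PSMB8, PSMB9 and PSMB10, which form the immunoproteasome and change the peptides offered to antigen presentation. The 19S particle caps the core. Its base holds the ATPases that unfold substrates and thread them into the core, and its lid holds PSMD14, which removes the ubiquitin chain. Assembly needs dedicated chaperones that leave the finished particle, and activators of the PSME family can open the core without a 19S cap. When proteasome activity falls, the transcription factor NRF1 (gene NFE2L1) is known to raise the transcription of most subunit genes together. Inhibitors of the core, such as bortezomib, are used against blood cancers.

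Proteasome transcripts were on balance slightly lower in the hyperoside group, by sizes under the fold change of 2 that the study asks of a differentially expressed gene (DEG). Of the 48 proteasome genes, 47 passed edgeR's filter on low counts, and PSMA8, a testis subunit with 0, 1 and 0 counts in the control libraries and 0, 2 and 0 in the hyperoside libraries, did not. At an edgeR adjusted p under 0.05, which comes from the quasi-likelihood test of edgeR with Benjamini-Hochberg adjustment across the 15095 genes tested, 16 of the 47 fell and 2 rose. These are 34.0% and 4.26% of the genes tested, where 23.2% of all tested genes were called lower and 22.1% were called higher (45.3% in either direction). Without adjustment, 19 had a p under 0.05 with a lower level and 2 with a higher one. No proteasome gene passed the DEG rule, which adds a fold change above 2 and which 3.76% of all tested genes passed as lower and 6.43% as higher (10.2% in either direction). The same 0 came from every alternative fit, DESeq2 and limma included, and from the unadjusted p with the same fold change.

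The median log2 fold change of hyperoside over control was -0.15 over the 47 genes and 0.00 over all tested genes. It was -0.08 without control replicate 1 and -0.10 without hyperoside replicate 1. Libraries within a group differed by a similar size. Set against the control mean, the median log2 value of the 47 genes was 0.087, -0.030 and -0.069 in control replicates 1, 2 and 3. In hyperoside replicates 1, 2 and 3 it was -0.205, -0.072 and -0.137, so control replicate 3 and hyperoside replicate 2 were nearly equal. Control replicate 3 lay below the control mean in 43 of the genes, and the hyperoside libraries in 36, 30 and 36. In 36 of the 47 the log2 fold change was below 0, against 49.8% of all tested genes, and with library totals as the only scaling PSMA1, PSMB4, PSMC5 and PSMD6 turned positive and 32 remained below 0. The control and hyperoside libraries did not overlap, with hyperoside lower, in 21 of the 47 genes (27.3% of all tested genes), and with hyperoside higher in 4 (27.1%, or 54.4% in either direction). The split of the calls depends on the scaling. With library totals alone 13 proteasome genes were called lower and 6 higher, in place of 16 and 2. Over the whole table, 2958 genes were then called lower and 3726 higher, in place of 3508 and 3333.

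The counts also depended on single libraries. Control replicate 1, which had the smallest normalization factor (0.957), held the highest control value in 41 of the 47 genes, while it did so in 42.1% of all tested genes. Control replicate 3 was the lowest control library in 34. In the hyperoside group, replicate 2 was the highest library in 34 of the genes and replicate 1 the lowest in 28. Without control replicate 1, 15 proteasome genes were called lower and 10 higher. Without hyperoside replicate 1, 9 were called lower and 1 higher, and without hyperoside replicate 3, 11 were called lower and 2 higher. Leaving out control replicate 2, control replicate 3 or hyperoside replicate 2 left 1 gene called higher.

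**Figure D1:**
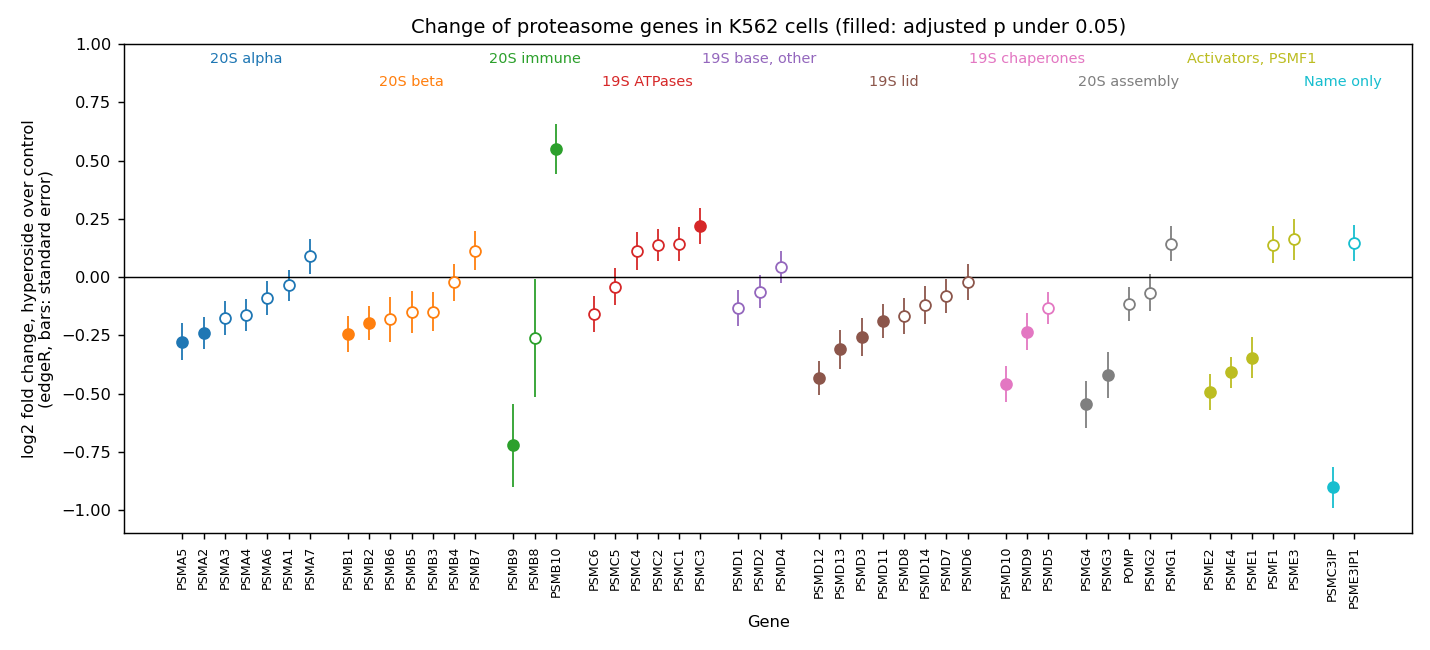
Log2 fold change of hyperoside over control for each tested gene, grouped by role, with the edgeR estimate as a point, filled where the gene was called, and bars of 1 SE to either side. The 16 proteasome genes called lower range from -0.72 (PSMB9) to -0.19 (PSMD11), and the 2 called higher are PSMB10 at 0.55 and PSMC3 at 0.22. The signs of PSMA1, PSMB4, PSMC5 and PSMD6 depend on the scaling.

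Calls that did not depend on such choices were fewer. The value of each library is given in CPM, which relates a gene's counts to the TMM-scaled size of its library. In all 15 alternative fits, which changed the scaling, the filter, the test, the unit or the libraries, 9 proteasome genes were called lower. They were the immunoproteasome subunit PSMB9, the lid subunits PSMD12 and PSMD13, the base chaperone PSMD10, the core assembly factors PSMG3 and PSMG4, and the activators PSME1, PSME2 and PSME4. PSMB10, another immunoproteasome subunit, was called higher in all 15. The share of all tested genes called in every fit was not computed, so the number of these genes does not set the proteasome apart. None of the standard catalytic subunits and none of the 19S ATPases was among these 10 genes.

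In RefSeq on GRCh38.p14, PSMB9 lies at chr6:32854192-32859851, 487 bases from TAP1 on the other strand and 9512 bases from PSMB8, in the major histocompatibility complex. PSME1 at chr14:24136194-24138962 and PSME2 at chr14:24143365-24146610 lie on opposite strands 4402 bases apart. PSMB10 lies at chr16:67934506-67936850, PSMD12 at chr17:67337916-67366577, PSMD13 at chr11:236976-252984, PSMD10 at chrX:108084207-108091542, PSME4 at chr2:53864069-53970993, PSMG3 at chr7:1567332-1570032 and PSMG4 at chr6:3254404-3268049. Exons of 21 of the 50 genes overlap exons of a gene on the opposite strand in GENCODE 29, and those of 8 overlap a gene on the same strand. Because the use of strand in the counting is not stated, reads of PSMD13 and SIRT3, PSME1 and EMC9, PSME2 and RNF31, PSME4 and ACYP2, PSMG3 and PSMG3-AS1, and PSMG4 and SLC22A23 could not be told apart where their exons overlap. PSMB9 overlaps PSMB8 on the opposite strand. PSMB9 overlaps PSMB8-AS1 and PSMB10 overlaps AC040162.1 on the same strand, where stranded counting could not part them either, and 22 of the 50 genes have a pseudogene named after them in RefSeq that could share reads.

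**Figure D2:**
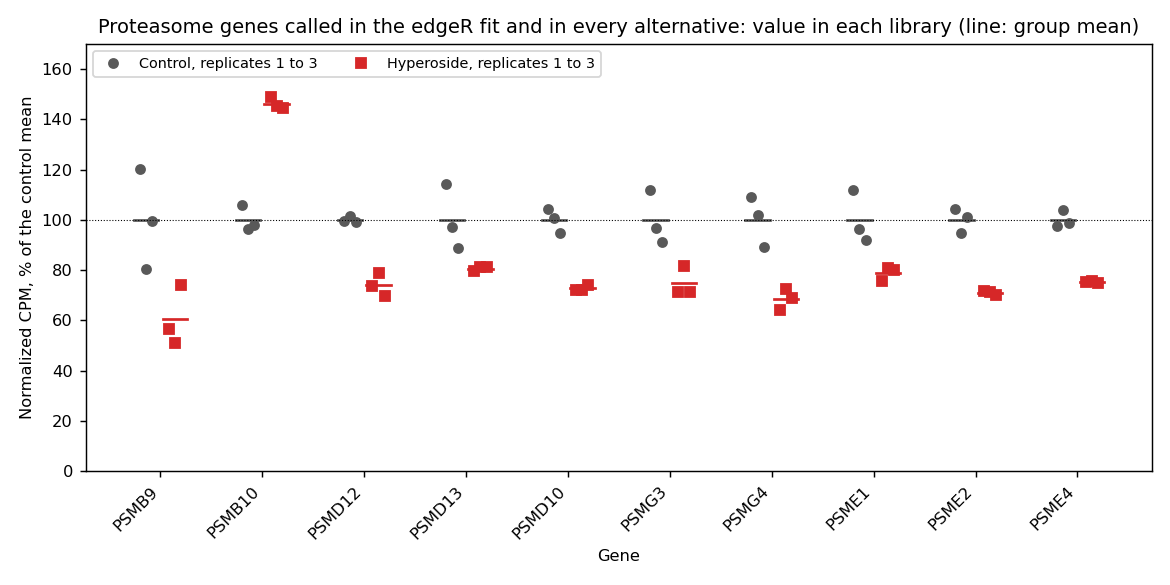
CPM of the 10 proteasome genes called in the edgeR fit and in all 15 alternatives, as a percentage of the control mean, with 1 point per library and a line at each group mean. In each of the 10 the 3 hyperoside libraries lie wholly on one side of the 3 control libraries, above them for PSMB10 and below them for the other 9.

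The promoters of these genes were read from RefSeq, as 250 bases before to 50 bases after the gene's start, a window that 44 of the 50 genes had. The antioxidant response element is the site shared by NRF2 and NRF1 with small MAF proteins, and its core was searched as TGACNNNGC on both strands. It was present in 13 of 42 proteasome promoters (31.0%) and in 13.6% of 27305 promoters of the same length. Of the 13 proteasome genes with this core, 7 were called lower and 0 higher, where 23.2% and 22.1% of all tested genes were. Of the 28 tested proteasome genes whose promoter lacked it, 7 were called lower (25%) and 2 higher. Of the 13 with the core, 5 were called lower without hyperoside replicate 1, and 5 without hyperoside replicate 3. Without control replicate 1, 7 of the 13 were called lower and 2 higher. The assembly and activator classes were also those most often called lower (50% and 60%), so core and class cannot be told apart here. Whether the core bears on the direction was not tested. The CCAAT box, searched as CCAAT, was present in 18 of the 42 promoters (42.9%) and in 35.7% of all promoters. Of these 18 genes 6 were called lower (33.3%), as were 8 of the 23 tested genes whose promoter lacked it (34.8%). The core of the interferon-stimulated response element, searched as GAAANNGAAA after the promoters had been seen, was present in 6 of 42 (14.3%) and in 3.65% of all promoters. Those 6 genes were PSMA4, PSMB4, PSMB10, PSME1, PSME2 and PSMG4. Matches of different motifs overlapped in 0 cases among these genes. A match of letters is a description and shows no binding.

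Of the 10 genes called in every fit, 9 had a promoter window, PSMG3 being the exception, and 5 held the antioxidant core. They are shown because they include all 3 activators that fell, with the match in capitals, 10 bases to either side in lower case, and the strand of the gene read 5′ to 3′. The cores of PSMB9 and PSME4 run on the opposite strand of the gene and appear here as the reverse complement.
PSMB9 chr6:32854034-32854062: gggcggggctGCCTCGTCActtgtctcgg
PSMD12 chr17:67366724-67366752: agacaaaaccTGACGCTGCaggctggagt
PSME1 chr14:24136098-24136126: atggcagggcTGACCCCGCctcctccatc
PSME2 chr14:24146767-24146795: ccctggactgTGACCCAGCcagcaccgcc
PSME4 chr2:53971009-53971037: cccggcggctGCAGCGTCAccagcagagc
The cores lie 148 to 140 bases before the start in PSMB9, 165 to 157 in PSMD12, 86 to 78 in PSME1, 175 to 167 in PSME2 and 34 to 26 in PSME4.

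The interferon core was held by 4 of those 9, and their matches are set out because PSMB10 moved opposite to the other 3. They are printed in the same way, and that of PSME1 is on the opposite strand of the gene.
PSMB10 chr16:67936852-67936881: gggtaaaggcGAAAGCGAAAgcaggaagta
PSME1 chr14:24136189-24136218: gccctaccgcTTTCGCTTTCccttcgcggt
PSME2 chr14:24146619-24146648: cctggggagtGAAAGCGAAAgcccgggcga
PSMG4 chr6:3258904-3258933: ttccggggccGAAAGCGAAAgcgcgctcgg
Read along the matching strand, the 4 sites have the same letters. They lie 21 to 12 bases before the start in PSMB10, 28 to 19 in PSME2 and 33 to 24 in PSMG4, and in PSME1 within the first bases of the transcript. For PSMG4 the start used by the promoter table lies inside the gene's RefSeq span. The genes that carry this sequence did not share a direction, with PSMB10 called higher and PSME1, PSME2 and PSMG4 called lower.

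The 20S core genes with the proteolytic sites of the constitutive proteasome did not pass the test. PSMB5, the chymotrypsin-like subunit and main target of bortezomib, stood at 111, 93.3 and 94.7 CPM in the control libraries and 81.1, 98.6 and 89.7 CPM in the hyperoside libraries, with libraries given as replicates 1, 2 and 3 here and in what follows. Its groups overlapped (log2 fold change -0.15, SE 0.09, edgeR adjusted p = 0.182). PSMB6, the caspase-like subunit, had 59.9, 50.3 and 46.5 CPM in the control libraries and 44.6, 47.7 and 45.9 CPM in the hyperoside libraries, also with overlap (log2 fold change -0.18, SE 0.10, edgeR adjusted p = 0.133). For PSMB7, the trypsin-like subunit, the values were 178, 150.5 and 141 CPM in the control libraries and 167, 176 and 165 CPM in the hyperoside libraries. Its log2 fold change was 0.11 (SE 0.08, edgeR adjusted p = 0.287), and it was called higher without control replicate 1 (0.22, adjusted p = 0.00625). PSMB6 was called lower without control replicate 3 (-0.26, adjusted p = 0.0439).

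Of the other beta ring genes, PSMB1 and PSMB2, structural subunits without a proteolytic site, were called lower. PSMB1 stood at 342, 293 and 280.1 CPM in the control libraries and 254, 267 and 251 CPM in the hyperoside libraries. All hyperoside libraries lay below all control libraries (log2 fold change -0.24, SE 0.08, edgeR adjusted p = 0.0161), and the call was lost without hyperoside replicate 1 (adjusted p = 0.0700), without hyperoside replicate 3 (adjusted p = 0.0741) and on log2(FPKM + 1). PSMB2 had 331, 291 and 289 CPM in the control libraries and 257, 279.9 and 258 CPM in the hyperoside libraries, again without overlap, and fell by 0.20 on the log2 scale (SE 0.07, edgeR adjusted p = 0.0368). Its call was lost in 8 of the 15 alternatives, among them those without control replicate 1, hyperoside replicate 1 and hyperoside replicate 3. PSMB3 at -0.15 and PSMB4 at -0.02 on the log2 scale were not called, and PSMB4 changed sign with the scaling.

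In the alpha ring, whose subunits form the gate of the core, 2 of the 7 tested genes fell. PSMA2 had 222, 218 and 204 CPM in the control libraries and 178, 182 and 185 CPM in the hyperoside libraries. PSMA5 had 235, 209 and 207 CPM in the control libraries and 165, 196 and 176 CPM in the hyperoside libraries. In both genes the hyperoside libraries were all below the control libraries. PSMA2 fell by 0.24 on the log2 scale (SE 0.07, edgeR adjusted p = 0.00837), and PSMA5 fell by 0.28 on the log2 scale (SE 0.08, edgeR adjusted p = 0.00849). Both calls were lost without hyperoside replicate 1, with adjusted p of 0.0525 and 0.0754 in edgeR's test. PSMA3 and PSMA4 had no overlap either, with log2 fold changes of -0.18 and -0.16, but missed the threshold (edgeR adjusted p = 0.0592 and 0.0586). PSMA1, PSMA6 and PSMA7 lay between -0.09 and 0.09 on the log2 scale, with groups that overlapped, and PSMA1 changed sign with the scaling. Among all 17 tested 20S genes, 5 were called lower (29.4%) and 1 higher (5.88%), where 23.2% and 22.1% of all tested genes were. The median log2 fold change of the 17 was -0.16, and -0.06 without control replicate 1. Without hyperoside replicate 1 the number called lower was 1, without hyperoside replicate 3 it was 3, and without control replicate 1 the number called higher was 3.

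Of the 3 immunoproteasome subunits 1 fell, 1 rose and 1 was not called. PSMB9, which takes the place of PSMB6, had 12.5, 8.35 and 10.4 CPM in the control libraries and 5.89, 5.31 and 7.72 CPM in the hyperoside libraries. The highest hyperoside library was below the lowest control library, and PSMB9 fell by 0.72 on the log2 scale (SE 0.18, edgeR adjusted p = 0.00296), or by 39.4%, the largest fall among the 47 genes. PSMB10, which takes the place of PSMB7, had 13.6, 12.4 and 12.6 CPM in the control libraries and 19.2, 18.7 and 18.6 CPM in the hyperoside libraries. Every hyperoside library was above every control library, and PSMB10 rose by 0.55 on the log2 scale (SE 0.11, edgeR adjusted p = 0.000463), or by 46.3%. PSMB8, which takes the place of PSMB5, had 3.98, 3.07 and 2.35 CPM in the control libraries and 2.45, 2.37 and 3.02 CPM in the hyperoside libraries, with overlap (log2 fold change -0.26, SE 0.25, edgeR adjusted p = 0.425). PSMB8 had the lowest counts and the largest SE of the 3.

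Per length, the immune subunits were the scarcest of the tested core genes. PSMB8 had 2.01 ± 0.476 FPKM (SD, n = 3) among control and 1.74 ± 0.223 FPKM among hyperoside libraries, set against 78.6 ± 5.89 FPKM and 73.4 ± 6.96 FPKM for PSMB5. The level of PSMB9 as a percentage of that of PSMB6, the subunit it replaces, was 17.3%, 13.8% and 18.5% in the control libraries and 11%, 9.23% and 14% in the hyperoside libraries. Its means were 16.5% ± 2.44 and 11.4% ± 2.39 (SD, n = 3 in each group), and hyperoside replicate 3 lay just above control replicate 2. PSMB10 as a percentage of PSMB7 was 7.69%, 8.27% and 9.03% in the control libraries and 11.6%, 10.7% and 11.3% in the hyperoside libraries, without overlap, with means of 8.33% ± 0.672 and 11.2% ± 0.469 (SD, n = 3). PSMB8 as a percentage of PSMB5 was 2.54% ± 0.467 among control and 2.39% ± 0.397 among hyperoside libraries (SD, n = 3), with overlap. These ratios are within a library and are given as a description.

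**Figure D3:**
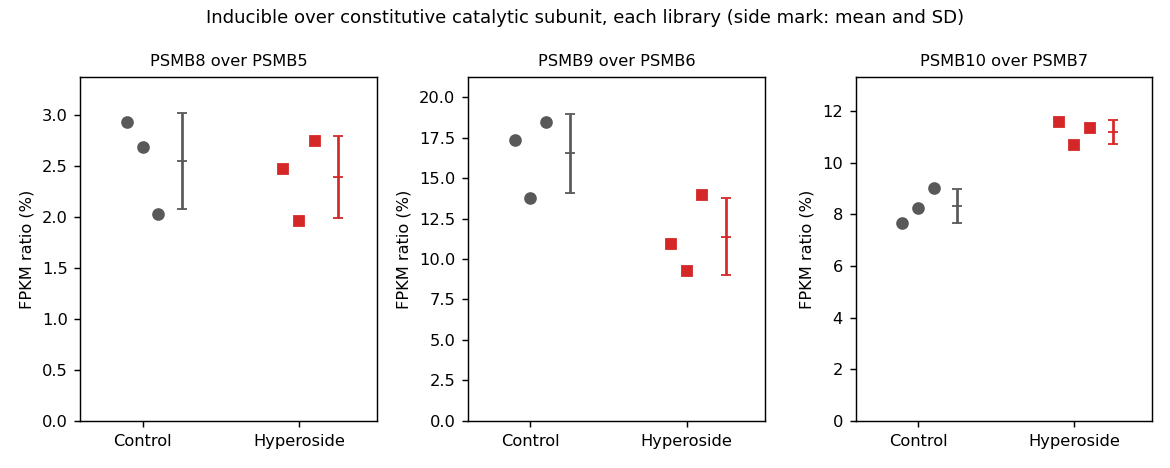
FPKM of each immunoproteasome subunit as a percentage of the FPKM of the standard subunit it replaces, with 1 point per library and a side mark for the mean and SD of each group. PSMB9 over PSMB6 averages 16.5% among control and 11.4% among hyperoside libraries, PSMB10 over PSMB7 averages 8.33% and 11.2%, and PSMB8 over PSMB5 averages 2.54% and 2.39%.

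In the 19S base, none of the 6 ATPase genes was called lower and 1 was called higher. PSMC3 had 153, 136 and 135 CPM in the control libraries and 158, 177 and 159 CPM in the hyperoside libraries. Its hyperoside libraries were all above the control libraries, and it rose by 0.22 on the log2 scale (SE 0.08, edgeR adjusted p = 0.0278). The call was lost without control replicate 2, control replicate 3, hyperoside replicate 1 or hyperoside replicate 2, with an adjusted p of 0.146 without hyperoside replicate 2. PSMC1 at 0.14 and PSMC2 at 0.14 also had every hyperoside library above every control library but were not called (edgeR adjusted p = 0.128 and 0.122). PSMC6 had every hyperoside library below, at -0.16 (edgeR adjusted p = 0.0974). PSMC4 was at 0.11 and PSMC5 at -0.04 with overlap, and PSMC5 turned positive with library totals. The median of the 6 was 0.12, and 0.08 without control replicate 3 or hyperoside replicate 2. The number of ATPase genes called higher was 3 with library totals as the only scaling, 4 without control replicate 1 and 0 without any 1 of the 4 libraries named for PSMC3.

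The non-ATPase members of the base were not called. PSMD4, a receptor for ubiquitin chains, had 213, 198 and 196 CPM in the control libraries and 205, 213 and 207 CPM in the hyperoside libraries, with overlap (log2 fold change 0.04, SE 0.07, edgeR adjusted p = 0.644). The scaffold subunits PSMD1 and PSMD2 were at -0.13 and -0.06 on the log2 scale (edgeR adjusted p = 0.164 and 0.496).

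In the 19S lid 4 of 8 genes fell, none rose, and the median log2 fold change was -0.18. Over all 17 genes of the 19S particle, 4 were called lower (23.5%) and 1 higher (5.88%). Of all tested genes 23.2% and 22.1% were, so the share called lower does not set the 19S genes apart. The lid holds the deubiquitinase PSMD14 over the ATPase ring. PSMD12 had 121, 124 and 121 CPM in the control libraries and 89.9, 96.3 and 84.7 CPM in the hyperoside libraries. Its hyperoside libraries lay wholly below the controls, and it fell by 0.43 on the log2 scale (SE 0.07, edgeR adjusted p = 0.000131), or by 25.9%. PSMD13 had 189, 160.5 and 146 CPM in the control libraries and 132, 134 and 134 CPM in the hyperoside libraries, without overlap, and fell by 0.31 on the log2 scale (SE 0.08, edgeR adjusted p = 0.00600). PSMD3 had 241, 199 and 204 CPM in the control libraries and 169, 192 and 177 CPM in the hyperoside libraries and fell by 0.26 on the log2 scale (SE 0.08, edgeR adjusted p = 0.0163), a call lost on log2(FPKM + 1) and without hyperoside replicate 1 or 3 (adjusted p = 0.0997 and 0.0688). PSMD11 had 172, 158 and 163 CPM in the control libraries and 139, 153 and 142 CPM in the hyperoside libraries, also without overlap. It fell by 0.19 on the log2 scale (SE 0.07, edgeR adjusted p = 0.0415), a call lost in 11 of the 15 alternatives and kept, among the left-out libraries, without hyperoside replicate 2 alone. The deubiquitinase PSMD14 was not called, with 173, 183 and 151 CPM in the control libraries and 149.8, 169 and 148 CPM in the hyperoside libraries (log2 fold change -0.12, SE 0.08, edgeR adjusted p = 0.253). PSMD6, PSMD7 and PSMD8 were at -0.02, -0.08 and -0.17 on the log2 scale and were not called, and PSMD6 turned positive with library totals. Without hyperoside replicate 1 the lid had 2 genes called lower, and without hyperoside replicate 3 also 2.

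Among the assembly genes 4 of 8 fell (50%) and none rose, where 23.2% and 22.1% of all tested genes did. Their median log2 fold change was -0.18. PSMG3 and PSMG4 form a pair that helps to build the alpha ring. PSMG4 had 38.2, 35.6 and 31.3 CPM in the control libraries and 22.5, 25.4 and 24.1 CPM in the hyperoside libraries. PSMG3 had 47.7, 41.3 and 39 CPM in the control libraries and 30.4, 34.8 and 30.4 CPM in the hyperoside libraries. In both, all hyperoside libraries were below all control libraries. PSMG4 fell by 0.55 on the log2 scale (SE 0.10, edgeR adjusted p = 0.000251), or by 31.5%, and PSMG3 fell by 0.42 on the log2 scale (SE 0.10, edgeR adjusted p = 0.00212), or by 25.3%. The partner pair PSMG1 and PSMG2, which acts at the same step, was not called, with log2 fold changes of 0.14 and -0.07 (edgeR adjusted p = 0.135 and 0.513). Without control replicate 1, PSMG1 was called higher (log2 fold change 0.18, edgeR adjusted p = 0.0286). POMP, which is needed to mature the core, had 115, 111 and 103 CPM in the control libraries and 98.5, 104 and 101 CPM in the hyperoside libraries, with overlap (log2 fold change -0.12, SE 0.07, edgeR adjusted p = 0.210).

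The chaperones of the 19S base bind the ATPases before they join the particle. PSMD10, also known as gankyrin, had 85.4, 82.7 and 77.7 CPM in the control libraries and 59.2, 59 and 60.8 CPM in the hyperoside libraries. The groups stood well apart, and PSMD10 fell by 0.46 on the log2 scale (SE 0.08, edgeR adjusted p = 0.000109), or by 27.2%. PSMD9 had 57.3, 55.6 and 52.9 CPM in the control libraries and 47.2, 46.5 and 47.3 CPM in the hyperoside libraries, without overlap, and fell by 0.23 on the log2 scale (SE 0.08, edgeR adjusted p = 0.0249), a call that 7 of the 15 alternatives lost, among them those without control replicate 2 and without each hyperoside library. PSMD5 was at -0.13 on the log2 scale, without overlap but over the threshold (edgeR adjusted p = 0.126).

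Among the activators and the inhibitor 3 of 5 were called lower (60%), in the edgeR fit and in all 15 alternatives. In the edgeR fit 23.2% of all tested genes were called lower. The median log2 fold change of the 5 was -0.35. PSME1 and PSME2 encode the alpha and beta chains of the interferon-inducible cap of the core. PSME2 had 77.1, 69.8 and 74.5 CPM in the control libraries and 53, 52.6 and 51.7 CPM in the hyperoside libraries. PSME1 had 80.6, 69.4 and 66.4 CPM in the control libraries and 54.5, 58.2 and 57.6 CPM in the hyperoside libraries. Neither gene had a hyperoside library as high as any control library. PSME2 fell by 0.49 on the log2 scale (SE 0.08, edgeR adjusted p = 6.37e-05), or by 29%, and PSME1 fell by 0.35 on the log2 scale (SE 0.09, edgeR adjusted p = 0.00348), or by 21.3%. PSME4, a large nuclear activator linked to the degradation of acetylated histones, had 291, 309 and 294 CPM in the control libraries and 225, 226 and 222 CPM in the hyperoside libraries. It fell by 0.41 on the log2 scale (SE 0.07, edgeR adjusted p = 7.09e-05), or by 24.7%, and its groups did not overlap.

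PSME3, the nuclear relative of PSME1 and PSME2, and the inhibitor PSMF1 did not pass the test. PSME3 had 177, 150.4 and 147 CPM in the control libraries and 170.3, 197 and 163 CPM in the hyperoside libraries, with overlap (log2 fold change 0.16, SE 0.09, edgeR adjusted p = 0.141). PSMF1, which inhibits the purified core, had 84.1, 76.1 and 72.9 CPM in the control libraries and 85.3, 82.2 and 89.1 CPM in the hyperoside libraries (log2 fold change 0.14, SE 0.08, edgeR adjusted p = 0.167). Without control replicate 1 both were called higher, at 0.25 and 0.20 on the log2 scale with edgeR adjusted p of 0.00494 and 0.0186. With library totals as the only scaling PSMF1 was called higher as well.

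**Figure D4:**
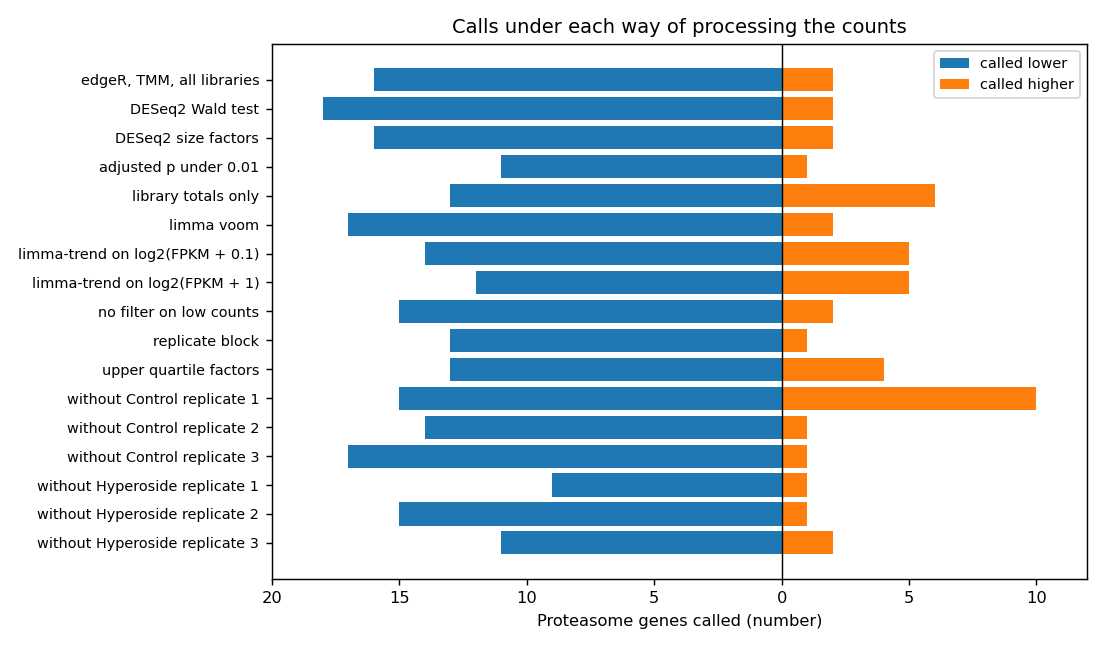
Number of proteasome genes called lower (bars to the left) and higher (bars to the right), of the 47 tested, in the edgeR fit and in each alternative. The number called lower runs from 9 without hyperoside replicate 1 to 18 with DESeq2, and the number called higher from 1 to 10, the latter without control replicate 1.

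Of the genes matched by name only, PSMC3IP had a larger fold change than any of the 47 proteasome genes. PSMC3IP takes part in homologous recombination and is no proteasome subunit. It had 78, 67.8 and 67.3 CPM in the control libraries and 36, 39.6 and 38.4 CPM in the hyperoside libraries, a fall in every hyperoside library. It fell by 0.90 on the log2 scale (SE 0.09, edgeR adjusted p = 2.54e-07), or by 46.5%, which is short of the fold change of 2 for a DEG. PSME3IP1 was at 0.15 on the log2 scale (edgeR adjusted p = 0.135).

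Levels were compared between genes per length, in FPKM. The genes of the core ran from 2.01 FPKM for PSMB8 to 336 FPKM for PSMB1 in the control group, leaving out PSMA8. PSMB4 followed with 220.0 ± 15.8 FPKM (SD, n = 3), then PSMA7 with 184 ± 9.80 FPKM and PSMB3 with 182 ± 15 FPKM in the control group. The spreads of PSMA7 and PSMB3 overlap. Summed over its genes, the 20S core had 1808 ± 103 FPKM among control and 1744 ± 66.1 FPKM among hyperoside libraries (SD, n = 3 each), a difference under the spread within the groups. The 19S particle had 1221 ± 50.2 and 1206 ± 56 FPKM. Within it the ATPases summed to 304 ± 13.4 and 336 ± 17.9 FPKM, with the higher mean in the hyperoside group, and the lid to 622 ± 29.3 and 568 ± 27.3 FPKM, with the lower mean there. The activators and PSMF1 summed to 230.2 ± 8.11 and 198 ± 6.30 FPKM. These levels rest on the deposited gene length, which FPKM divides by and which was 10891 bases for PSMG4, 8317 for PSMF1 and 5951 for PSMC1.

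**Figure D5:**
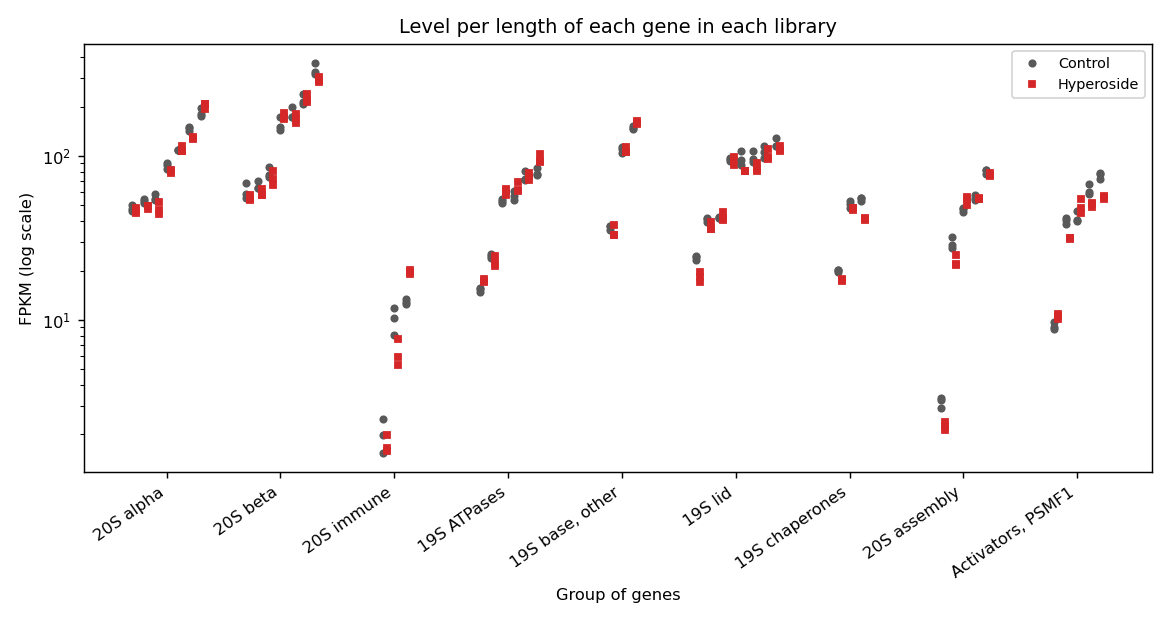
FPKM of each proteasome gene on a log axis, grouped by role, with 1 point per library, grey circles for control and red squares for hyperoside. PSMB1 is highest, at means of 336 FPKM for control and 294 FPKM for hyperoside, and among the tested genes PSMB8 is lowest, at 2.01 and 1.74 FPKM.

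The genes around the proteasome were read from lists of 47 genes, of which 46 were tested, 21 fell and 5 rose, set against 23.2% and 22.1% over the whole table. NRF1 activates subunit genes after it is pulled from the endoplasmic reticulum by VCP, trimmed of its sugars by NGLY1 and cut by DDI2. NFE2L1, the gene of NRF1, had 260.2, 248 and 262 CPM in the control libraries and 192, 187 and 192 CPM in the hyperoside libraries. All hyperoside libraries lay below all control libraries, and NFE2L1 fell by 0.43 on the log2 scale (SE 0.07, edgeR adjusted p = 4.48e-05). Of the 10 genes listed for this route 7 fell and 2 rose. The list also holds small MAF genes, and NFE2L2 and NFE2L3, which are not steps of the route and were both among those that fell. SYVN1, the ubiquitin ligase that keeps NRF1 low, fell by 0.73 on the log2 scale (SE 0.08, edgeR adjusted p = 8.14e-07). MAFG, a small MAF partner of NRF1 and NRF2, fell by 0.59 on the log2 scale (SE 0.07, edgeR adjusted p = 4.31e-06), and NFE2L2, the gene of NRF2, fell by 0.52 on the log2 scale (SE 0.08, edgeR adjusted p = 2.46e-05). VCP fell by 0.34 on the log2 scale (SE 0.07, edgeR adjusted p = 0.00100), whereas DDI2 and NGLY1 rose by 0.30 and 0.18 (edgeR adjusted p = 0.00931 and 0.0494). Without hyperoside replicate 2 none of these genes was called higher, and without any 1 of control replicates 2 and 3 and hyperoside replicates 1 and 3, 1 was.

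Of 13 other proteins that bind the proteasome, 4 fell and 2 rose. With library totals as the only scaling, and on either FPKM scale, 2 were called lower and 3 higher. UCHL5, a deubiquitinase of the 19S particle, had 129, 154 and 157 CPM in the control libraries and 119.9, 115 and 107 CPM in the hyperoside libraries and fell by 0.37 on the log2 scale (SE 0.08, edgeR adjusted p = 0.00153). AKIRIN2, which carries proteasomes into the nucleus, had 59.3, 58.8 and 54.1 CPM in the control libraries and 46.7, 47.6 and 44.9 CPM in the hyperoside libraries and fell by 0.31 on the log2 scale (SE 0.08, edgeR adjusted p = 0.00528). ECPAS, a scaffold that binds both core and cap, had 154, 171 and 167 CPM in the control libraries and 205, 207 and 189 CPM in the hyperoside libraries and rose by 0.29 on the log2 scale (SE 0.07, edgeR adjusted p = 0.00385). ADRM1, the receptor that recruits UCHL5, the small lid protein SEM1 and the arsenite-inducible ZFAND2A were at 0.07, -0.09 and -0.09 and were not called (edgeR adjusted p = 0.547, 0.330 and 0.523). Without any 1 of the hyperoside libraries 2 genes of this list were called lower, and without hyperoside replicate 1 or 2 only ECPAS was called higher. Of 11 genes of ubiquitin shuttles and VCP cofactors, 4 fell and 1 rose, among them UBQLN1 at -0.29 (edgeR adjusted p = 0.00276). The gene called higher there was DDI2, not called without hyperoside replicate 2, and without control replicate 1 FAF2 was called higher as well.

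Of the 6 genes that encode ubiquitin or its E1 enzymes, 5 fell (83.3%), where 23.2% of all tested genes were called lower. UBA6, the second ubiquitin E1, had 144, 202 and 195 CPM in the control libraries and 125, 121 and 117 CPM in the hyperoside libraries and fell by 0.58 on the log2 scale (SE 0.10, edgeR adjusted p = 0.000132). The ubiquitin precursor UBB fell by 0.20 on the log2 scale (edgeR adjusted p = 0.0311), a call lost in 8 of the 15 alternatives. With library totals as the only scaling, upper quartile factors, either FPKM scale or a block for the replicate number, 1 of the 6 was called lower. The number was also 1 without control replicate 1, hyperoside replicate 1 or hyperoside replicate 2, and it was 3 without control replicate 2.

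Peptides cut by the immunoproteasome reach HLA class I through the TAP transporter. Of 8 tested genes of this route 2 fell (25%) and 1 rose (12.5%), where 23.2% and 22.1% of all tested genes did, so the count of calls does not set these genes apart. With library totals as the only scaling 2 were called higher. TAP2 had 62.5, 66.8 and 59.8 CPM in the control libraries and 36, 42.7 and 39.6 CPM in the hyperoside libraries and fell by 0.68 on the log2 scale (SE 0.09, edgeR adjusted p = 8.00e-06). TAP1, the neighbour of PSMB9, had 20.5, 20.3 and 22.7 CPM in the control libraries and 13.7, 15.1 and 17.3 CPM in the hyperoside libraries, without overlap, and fell by 0.46 on the log2 scale (SE 0.11, edgeR adjusted p = 0.00294). TAPBP, which loads peptide onto class I, rose by 0.25 (SE 0.07, edgeR adjusted p = 0.0102), a call that control replicate 2 decided (adjusted p = 0.0512 without it), and 3 genes were called higher without control replicate 3 or without hyperoside replicate 2. The interferon factor IRF1 had overlapping groups, at -0.10 on the log2 scale, and was not called (edgeR adjusted p = 0.479). The light chain gene B2M was at -0.07 (edgeR adjusted p = 0.421). PSMB9, PSME1, PSME2, TAP1 and TAP2, which are known to be interferon-inducible, were thus called lower, and PSMB10, which is inducible too, was called higher. These genes were put together after their values were seen.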

How the data were processed

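RNA was sequenced from 6 K562 libraries, 3 control and 3 hyperoside, grouped by the treatment label. Per the labels, total RNA was taken with TRIzol, and the submitters' processing notes name fastp, HISAT2, HTSeq and the genome build hg38. The annotation, the versions and the use of strand are not given in the sources used here. The authors deposited raw counts per gene, not normalized, and FPKM values, which are the same counts divided by the gene's length and the library's total. One length per gene accounted for the FPKM in all 6 libraries. Of the annotation columns, those other than the symbol, the gene number and the coding type were not used.

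Counts of the whole table were filtered with filterByExpr (minimum count 10, minimum total 15), normalized by TMM (factors 0.957 to 1.03) and tested in R 4.3.3 with edgeR 4.0.16 by the quasi-likelihood test, with no term but the group. The Benjamini-Hochberg adjustment ran over 15095 genes, and a gene was called at an adjusted p under 0.05. The standard error is the log2 fold change divided by the square root of F. The biological coefficient of variation was 0.105. The paper names DESeq. DESeq2 1.42.0 and limma 3.58.1 served as alternatives, as did other scalings, no filter, an adjusted p under 0.01, FPKM with a pseudocount of 1 or 0.1, a block for the replicate number and fits that left out 1 library each. The fit was tested on simulated data.

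The genes, their roles, the lists around them and the promoter motifs were chosen with earlier results of these data known. Every gene of the rule could be named, with full values for catalytic subunits, POMP, PSMD14, PSMD4, activators, any called gene past 1.5-fold and up to 3 called genes per direction in the 20S, 19S and assembly groups. From the lists around them NFE2L1, ADRM1, SEM1, ZFAND2A and up to 3 called genes per list were named. DDI2, NGLY1, FAF2, IRF1 and B2M were named after their values were seen, and some genes of these lists are not reported here. Python 3.11.15, pandas 2.3.3, numpy 2.4.6 and matplotlib 3.10.9 made the tables and plots. Intervals for counting error were not computed, since each value rests on replicates.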

Additional observations from a re-analysis of the deposited data

How the results depend on the processing

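Over 15 alternative fits of the 67 named genes, 903 values kept their direction and side of the threshold, 57 calls were lost, 26 were gained and 19 values near 0 turned sign. No proteasome gene became a DEG, and the median log2 fold change of the proteasome genes stayed between -0.18 and -0.08. The cause of the changes below was not tested. The number of proteasome genes called higher, 2, was 6 with library totals, 4 with upper quartile factors, 5 on log2(FPKM + 1), 5 on log2(FPKM + 0.1) and 1 at an adjusted p under 0.01. For 19S genes called higher, 1, it was 3 with library totals, 3 with upper quartile factors, 3 on either FPKM scale and 0 at an adjusted p under 0.01. The 20S genes called lower, 5, numbered 3 on log2(FPKM + 1) and 3 at an adjusted p under 0.01, and the 19S genes called lower, 4, numbered 2 in both. Assembly genes called higher, 0, became 1 with library totals and 1 on either FPKM scale, and activators called higher, 0, became 1 with library totals. Called genes in the lists around the proteasome, 26, numbered 16 at an adjusted p under 0.01.

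With single libraries left out, proteasome genes called lower ranged from 9 to 17 and called higher from 1 to 10. The 20S genes called lower ranged from 1 to 7 and called higher from 1 to 3, the 19S genes called lower from 2 to 4 and called higher from 0 to 4, assembly genes called lower from 3 to 4 and called higher from 0 to 1, activators called higher from 0 to 2, and genes of the surrounding lists from 17 to 27.

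Signs turned in genes near 0 that were never called. With library totals, log2(FPKM + 0.1), log2(FPKM + 1) and upper quartile factors in turn, PSMA1 was at 0.0139, 0.0132, 0.0131, 0.00436, PSMB4 at 0.0294, 0.0300, 0.0299, 0.0186 and PSMD6 at 0.0278, 0.0259, 0.0254, 0.0182, and with the first 3 PSMC5 was at 0.0107, 0.0123, 0.0121. With single libraries left out, PSMB4 ranged from -0.0702 to 0.0621, PSMC5 from -0.0856 to 0.0482 and PSMD6 from -0.0723 to 0.0165. Deviations of same-numbered libraries from their group means had r of -0.151, -0.0348 and -0.0242 for numbers 1, 2 and 3. With means of only 3 libraries per group, these values cannot tell whether the numbers pair the samples. With the replicate block 13 proteasome genes were called lower and 1 higher, and 0 of the 19S genes higher. With 3 libraries per group the median SE of 0.08 on the log2 scale limits what can be seen to changes of about the size of the smallest called.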

Other observations

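Non-coding genes named after proteasome genes belong in no comparison above, and 3 of the 5 in the table were tested. PSMA3-AS1, an antisense RNA of PSMA3, had 12.6, 18.3 and 17.8 CPM in the control libraries and 21.8, 22.4 and 19.2 CPM in the hyperoside libraries (log2 fold change 0.38, SE 0.13, edgeR adjusted p = 0.0248). PSMG3-AS1 had 1.45, 1.39 and 2.27 CPM in the control libraries and 2.75, 3.40 and 2.80 CPM in the hyperoside libraries (log2 fold change 0.81, SE 0.28, edgeR adjusted p = 0.0244), while PSMG3 itself fell. The use of strand in the counting is not stated, so reads of each antisense gene and its partner cannot be told apart where exons overlap. PSMD6-AS2 was at 0.03 on the log2 scale (SE 0.40) and was not called. PSMB8-AS1 and PSMD7-DT had too few counts to be tested.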
